A study of Mus musculus with 6 samples.

Results

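The AP-1 family of transcription factors was described in T cells, and in the other barcodes captured with them, from mouse gliomas. The members are 9 genes of the 32285 in the gene expression matrices, taken by name: Fos, Fosb and Fosl2 of the FOS group, Jun, Junb and Jund of the JUN group, Batf and Batf3 of the BATF group, and Maf. All 9 were detected on both days. The cells came from C57BL/6J wild-type mice of 6 to 8 weeks with tumors of CT2A, a mouse glioma line, grown inside the skull, and no treatment separates the groups. Tumor-infiltrating CD3+ cells were sorted and captured once at day 13 (16 mice, pooled by 4 per replicate) and once at day 19 (4 mice). The 6 libraries are 1 gene expression, 1 surface antibody and 1 T cell receptor library of each day. Every cell is therefore from a tumor, and there is no T cell from blood, spleen or a tumor-free brain to set the values against.

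AP-1 is a dimer of basic leucine zipper proteins that binds short DNA sites near many genes of activation, growth and stress. FOS proteins need a JUN partner, whereas JUN proteins can also pair with each other. In T cells, signals from the receptor and from CD28 reach AP-1 through MAP kinases, and AP-1 binds with NFAT at cytokine genes such as Il2. Fos, Fosb, Jun and Junb are immediate early genes: their transcripts appear within minutes of a stimulus, which can be antigen, and can also be the warming, enzyme digestion and sorting of a tissue. BATF proteins pair with JUN proteins and bind with IRF4 or IRF8, and Batf is known for its part in effector and exhausted CD8 cells. Batf3 is required for the type 1 dendritic cell. Maf (c-MAF) is known from helper and regulatory CD4 cells, where it acts on Il10, and from macrophages.

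Promoter windows are shown for the 5 members in which a cyclic AMP response-like motif was found, since Fos, Fosb, Jun and Junb are the members whose levels lay together in the data below and Batf is the one that lay apart from them. RefSeq sequences matched 8 of the 9 members on GRCm38.p6, Maf having no window. The 250 bases before each start were searched on both strands for TGANTCA (the AP-1 site), TGACNNCA, TGACGT and TGACGC (forms of the cyclic AMP response element, of which TGACNNCA and TGACGT overlap where NN is GT), and the CArG box bound by serum response factor. Each window reads 5′ to 3′ on the gene's strand and ends at the base before the start, except Fosb, where a shorter stretch is given. The matched letters are in capitals.
Fos, chr12:85473770-85473889, plus strand: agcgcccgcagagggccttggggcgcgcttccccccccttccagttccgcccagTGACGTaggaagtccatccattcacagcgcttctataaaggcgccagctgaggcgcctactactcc
Fosb, chr7:19310088-19310117, minus strand: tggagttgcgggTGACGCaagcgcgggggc
Jun, chr4:95052223-95052342, minus strand: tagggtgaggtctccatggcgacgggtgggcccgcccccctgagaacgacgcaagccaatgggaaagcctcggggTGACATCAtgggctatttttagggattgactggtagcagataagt
Junb, chr8:84978749-84978868, minus strand: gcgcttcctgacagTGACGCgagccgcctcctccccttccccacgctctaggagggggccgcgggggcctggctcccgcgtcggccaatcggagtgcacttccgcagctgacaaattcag
Batf, chr12:85686600-85686719, plus strand: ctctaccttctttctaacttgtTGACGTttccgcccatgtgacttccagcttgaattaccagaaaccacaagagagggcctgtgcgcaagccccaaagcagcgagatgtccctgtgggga

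Fos and Batf, both on chromosome 12, each hold TGACGT, at -66 to -61 and at -98 to -93 from the start. Fosb holds TGACGC at -60 to -55 and Junb at -106 to -101. Jun holds TGACNNCA, as TGACATCA, at -45 to -38, and Fos holds a second form of it at -129 to -122, upstream of the printed stretch. Fosl2, Jund and Batf3 hold none of the motifs, and neither TGANTCA nor the CArG box was found in any member. Of 32851 promoter windows of this length, 15.6% hold TGACNNCA, 6.47% TGACGT, 6.12% TGACGC, 6.75% TGANTCA and 1.47% the CArG box. Such a match is a run of letters, not a measured binding site, and the members with a match include both those that were high together and Batf.

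Barcodes with at least 5000 gene UMIs (unique molecular identifiers, 1 per captured transcript) and at most 10% mitochondrial UMIs were kept: 8878 at day 13 and 4667 at day 19, with medians of 9500.5 and 11214 UMIs. CD8 cells were called from Cd8a or Cd8b1 UMIs without Cd4, and CD4 cells from Cd4 without these, with receptor contigs in 1 of the 4 contig tables of a day (called sets here). This gave 2959 and 1800 CD8 cells and 797 and 794 CD4 cells. A further 1017 and 343 barcodes had no UMI of Cd3d, Cd3e or Cd3g and no contig, although the cells were sorted on CD3. Their macrophage list (8 genes, among them C1qa, Csf1r and Apoe) summed to 15017 and 14111 CPM, the usual scaling of a gene's UMIs by the sum of all gene UMIs. Levels below are CPM of UMIs summed over the cells of a group, and a ratio carries the exact 95% interval for 2 Poisson counts. These intervals cover counting error only. With 1 capture a day there is no test of day, and the sets are not taken as independent animals, at day 19 in particular. Of the clonotypes with at least 2 cells in a set, 8.38% at day 13 and 29.2% at day 19 also occurred in another set. What this overlap comes from was not tested. The days share 62 kept barcodes, 20 of them T cells. No p-value is given and a difference is called at 1.5-fold. Each count of members called in a main comparison stands beside the share of all measured genes called the same way. Most counts under alternatives, such as a left-out set or other classes, are given without that share. Tumor and time in the animal, mouse pool and capture cannot be told apart in any difference between the days.

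T cells carried macrophage transcripts as well, and this bears on the members that macrophages express. All 8 macrophage genes were detected in CD8 and in CD4 cells, summing to 1842 and 2506 CPM in CD8 cells and to 6992 and 8161 CPM in CD4 cells at the 2 days. At least 1 UMI of C1qa, C1qb, C1qc, Lyz2 or Apoe was found in 36.4% and 45.9% of CD8 cells and in 59.5% and 72.8% of CD4 cells. Lists of other myeloid cells ran the other way by day. The monocyte list, whose Ly6c2, Ccr2 and Plac8 T cells express too, was 3687 and 2487 CPM in CD8 and 2461 and 1341 CPM in CD4 cells, and the dendritic list 178 and 103 CPM and 413 and 239 CPM. Their part in the day differences was not tested. Fos in CD8 cells of day 13 was 842 CPM in cells with no such UMI, 947 CPM with 1 to 9 and 2385 CPM with 10 or more. In CD4 cells of day 13 the Fos levels were 1713, 2005 and 3950 CPM in the same order, and the Jun levels 779, 776 and 2316 CPM. Fos and Jun were thus highest in the T cell barcodes with the most macrophage RNA, and the ratios below are also given for cells without it, called macrophage-free. Batf in CD4 cells of day 13 ran the other way, with 107, 97.7 and 56.7 CPM.

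Junb, Jund, Fos and Jun gave many UMIs per cell and Batf, Batf3 and Maf few, although a level compared between genes also reflects transcript length and capture. With each cell thinned to 5000 UMIs, a CD8 cell of day 13 held a median of 11 Junb UMIs, 3 Fos UMIs and 2 Jun UMIs. No Junb UMI was found in 2.77% of these cells, no Fos UMI in 15.8% and no Jun UMI in 26.5%. The upper tail was long: the highest cell had 99 Fos UMIs, and the tenth of cells with the most Fos held 40.4% of all Fos UMIs, against 25.9% for Junb and 46.1% for Jun. No Batf UMI was seen in 73.8% of the CD8 cells. Free RNA reaches these levels too: barcodes with 1 to 50 UMIs, taken as background, held 2160 and 1361 CPM of Fos, 66.0 and 87.8 CPM of Batf, 19.9 and 12.9 CPM of Batf3, and 73.2 and 90.03 CPM of Maf at the 2 days. For Jun they were 1276 and 865 CPM, for Junb 3342 and 2547 CPM, for Jund 1882 and 1689 CPM, for Fosb 358.5 and 198 CPM and for Fosl2 83.2 and 63.4 CPM. In CD8 cells every member lay below this background at both days, except Batf at day 13. The background mixes the RNA of all cells lysed in a capture, and its part in the UMIs of a cell was not tested, so that levels in CD8 cells are given without a claim of expression, above all for the rare Batf3 and Maf.

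**Figure D1:**
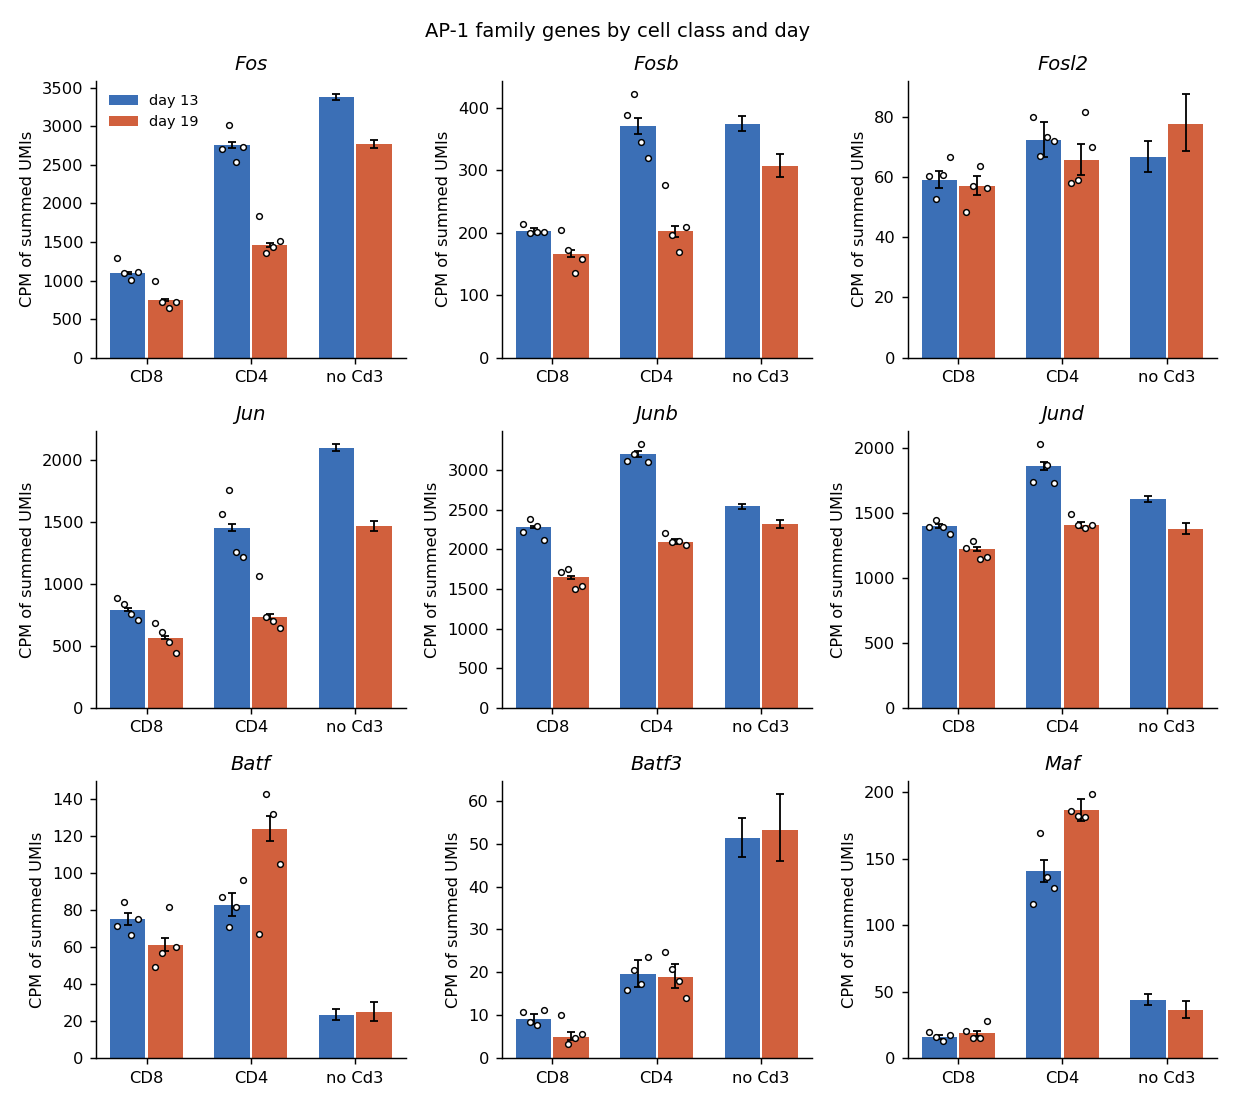
Level of each member in CPM (vertical axes, linear, each panel its own scale) in CD8 cells, CD4 cells and barcodes without Cd3 at days 13 and 19. Bars are summed UMIs with 95% Poisson error bars, and points are the 4 contig sets of T cells. Fos in CD4 cells stands between 2539 and 3012 CPM at day 13 and between 1359 and 1834 CPM at day 19, while Maf is high in CD4 cells alone among the T cells.

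CD8 cells of day 19 held less Fos, Jun and Junb than those of day 13, by less than 1.5-fold. Fos, the partner that gives the dimer its stable form with JUN, was 1299, 1096, 1013 and 1106 CPM in the 4 sets of day 13 and 990.0, 720.0, 649 and 723 CPM in those of day 19. No set of day 19 reached the lowest set of day 13, and the log2 ratio was -0.56 (-0.59 to -0.53). Jun was 884, 840, 756 and 705 CPM at day 13 and 680.4, 614, 529 and 438 CPM at day 19, again without overlap (log2 ratio -0.48). Junb, which pairs with FOS and BATF proteins, was 2213, 2386, 2294 and 2111 CPM and then 1717, 1749, 1496 and 1537 CPM (log2 ratio -0.47). Jund, which unlike the other JUN genes is known for steady expression in resting cells, ran from 1338 to 1445 CPM at day 13 and from 1144 to 1287 CPM at day 19, a log2 ratio of -0.20. These 4 members had every set of day 19 below every set of day 13, as did 14.9% of the 10638 genes measured. The background of barcodes with 1 to 50 UMIs was lower at day 19 by like amounts, with log2 ratios of -0.67 for Fos, -0.56 for Jun, -0.39 for Junb and -0.16 for Jund, and the part of free RNA in the cells' day ratios was not tested. Fosb (log2 ratio -0.28), Fosl2 (-0.05, -0.16 to 0.06) and Batf (-0.30, -0.40 to -0.20) had overlapping sets. The mix of CD8 states, described below, differed by day too: Pdcd1-negative Tcf7-positive cells were 1230 of 2959 at day 13 and 529 of 1800 at day 19, and terminal-like cells 155 and 244. The day ratios within states were uneven. Fos was at -0.23 in Pdcd1-negative Tcf7-positive, -0.42 in Pdcd1-negative Tcf7-negative, -0.73 in progenitor-like, -0.27 in Pdcd1 alone and -0.57 in terminal-like cells. Jun in the same order was at -0.30, -0.48, -0.59, -0.10 and 0.01, and Junb at -0.47, -0.42, -0.75, -0.04 and 0.04.

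Of the 9 members, 1 was past 1.5-fold lower in CD8 cells, against 6.61% of the genes. That member was Batf3, with 256 UMIs at day 13 and 107 at day 19 (log2 ratio -0.85, -1.19 to -0.52), and it lay below the background level of both days. Without set 2 of day 19 its ratio was -0.51, and without set 3 of day 13 or set 1 of day 19 there were 2 members past the fold. The members' median was -0.30, beside -0.04 for all genes measured. In macrophage-free CD8 cells the ratios were -0.43 for Fos, -0.21 for Jun, -0.47 for Junb and -0.36 for Batf. Maf, at 0.26 in all CD8 cells, was at -0.69 (-1.16 to -0.25) in the macrophage-free ones, with 8.98 CPM at day 13 and 5.55 CPM at day 19. Without macrophage RNA the Junb difference was thus as large as in all cells, and that of Jun was smaller.

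In CD4 cells Fos, Jun, Fosb and Junb were lower at day 19, past 1.5-fold. Fos was 2700, 3012, 2539 and 2736 CPM in the sets of day 13 and 1834, 1359, 1439 and 1515 CPM in those of day 19, a log2 ratio of -0.92 (-0.95 to -0.89). Jun went from 1213 to 1754 CPM over the sets of day 13 to 647 to 1064 CPM at day 19, and its ratio was -0.98. Fosb was 389, 422, 346 and 320.4 CPM and then 276, 197, 169 and 209.7 CPM, a ratio of -0.88. Junb was 3117, 3205, 3323 and 3102 CPM and then 2209, 2093, 2106 and 2051 CPM, a ratio of -0.61. These 4 of 9 members were past 1.5-fold lower, against 5.62% of 9426 genes. With Jund (-0.40) they had every set of day 19 below every set of day 13, as did 8.15% of genes. Their macrophage-free ratios were -0.83 for Fos, -0.54 for Jun, -0.95 for Fosb and -0.50 for Junb, so that Jun and Junb were no longer past the fold there. Background ratios were -0.67 for Fos, -0.56 for Jun, -0.86 for Fosb and -0.39 for Junb. The CD4 day ratio was below the CD8 one by 0.36 for Fos, 0.50 for Jun and 0.59 for Fosb, and in macrophage-free cells by 0.40, 0.33 and 0.69. For Junb the difference was -0.14 (-0.17 to -0.11), and -0.03 (-0.09 to 0.03) in macrophage-free cells. For Jund it was -0.21 (-0.25 to -0.17) and -0.01 (-0.08 to 0.07), and for Fosl2 -0.09 (-0.28 to 0.10) over all cells. Over all cells Batf3 was lower by more in CD8 cells (-0.85 against -0.04), with a difference of 0.81 (0.37 to 1.26). In macrophage-free cells this Batf3 difference was gone, at -0.06, with a wide interval of -1.10 to 0.97.

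Batf and Maf were higher in CD4 cells at day 19. Maf was 116, 169.5, 136 and 128 CPM in the sets of day 13 and 186, 182, 181 and 198 CPM in those of day 19, all above every day 13 set as in 10.4% of genes, with a log2 ratio of 0.41 (0.30 to 0.51) that was 0.18 in macrophage-free cells. Batf was 87.2, 70.9, 81.6 and 96.1 CPM and then 67.2, 142, 132 and 105 CPM. Set 1 of day 19 was the lowest of all 8, the sets overlapped, and the ratio was 0.58 (0.45 to 0.72), just inside 1.5-fold, and 0.46 macrophage-free. The interval of the difference between the CD4 and CD8 day ratios of Batf was 0.71 to 1.05 (difference 0.88, and 0.82 macrophage-free). The background was higher at day 19 as well, by 0.41 (0.10 to 0.73) for Batf and by 0.30 (-0.01 to 0.60) for Maf, and its part in the CD4 ratios was not tested. The mix of CD4 cells differed by day as well: those with Foxp3 numbered 187 and 227, those with Pdcd1 and no Foxp3 211 and 305, and those with neither 399 and 262, and the regulatory list summed to 391 and 571 CPM. Among Foxp3-positive cells alone the day ratios were 0.36 for Batf and 0.26 for Maf, and among Foxp3-negative cells 0.67 and 0.38. Fosl2 (-0.14) and Batf3 (-0.04) differed little between the days over all CD4 cells. In macrophage-free CD4 cells Batf3 was 18.8 CPM at day 13 and 8.39 CPM at day 19 (log2 ratio -1.17), from 53 and 17 UMIs.

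In the barcodes without Cd3, Fos, Jun, Fosb and Junb were lower at day 19, by less than in CD4 cells when no cell is left out. Fos was 3381 CPM at day 13 and 2770 CPM at day 19 (log2 ratio -0.29), Jun 2097 and 1466 CPM (-0.52), Fosb 375 and 307 CPM (-0.29) and Junb 2541 and 2313 CPM (-0.14). The day ratio of Fos in CD8 cells was below that in these barcodes by 0.27 (interval of the difference -0.32 to -0.23) and in CD4 cells by 0.63 (-0.68 to -0.59). For Jun the CD8 and no-Cd3 ratios differed by 0.03 (-0.02 to 0.09), and for Fosb by 0.00 (-0.11 to 0.12). In macrophage-free cells the Jun ratio was -0.54 in CD4 cells, near that of these barcodes, and -0.21 in CD8 cells. Over all cells, Jun and Fosb thus had day ratios in CD8 cells close to those in barcodes without Cd3, whereas Fos and Junb (difference -0.33) were lower by more in CD8 cells. These barcodes lack Cd3 UMIs and contigs but not every T cell transcript, with 62 UMIs of Prkcq among them.

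The day difference of the no-Cd3 barcodes was uneven. In the 297 and 123 barcodes with at least 5 UMIs of C1qa, C1qb and C1qc, genes of the complement component made by macrophages, Fos was 5446 and 3621 CPM (-0.59), Jun 4183 and 2012 CPM (-1.06) and Fosb 623 and 354 CPM (-0.82). In the 425 and 133 barcodes with fewer C1q UMIs and a UMI of a dendritic gene such as Flt3 or Xcr1, Fos was 2214 and 2083 CPM (-0.09) and Jun 1224 and 1195 CPM (-0.03). In the remaining 295 and 87 barcodes the ratios were -0.20 for Fos and -0.15 for Jun. Fos and Jun thus differed most between the days in the C1q-rich barcodes.

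Other immediate early genes ran beside these members. A list of 17 such genes, known both as early targets of the T cell receptor and as marks of tissue handling, had 17 of 17 ratios below 0 in CD8 cells, 4 of them past 1.5-fold, with a median of -0.54 beside -0.04 for all genes. In CD4 cells 11 of 17 were past 1.5-fold lower, with a median of -0.69 beside 0.02. The named genes were Socs3 (-0.66), an inhibitor of cytokine signaling, Zfp36 (588 against 908 CPM, -0.63), which destabilizes cytokine mRNA, and Klf4 (-0.60) in CD8 cells, and Rhob (121 against 333 CPM, -1.46) and Zfp36 (-0.87) in CD4 cells. The 10 heat shock genes, another mark of handling, had medians of -0.02 and -0.31, with 0 and 1 past the fold. Summed over the list, the immediate early genes were lower at day 19 by 0.48 (log2) in CD8 cells, by 0.59 in CD4 cells and by 0.28 in no-Cd3 barcodes. Whether the members and this list follow stimulation in the tumor or handling was not tested, as both lists could move with either.

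**Figure D2:**
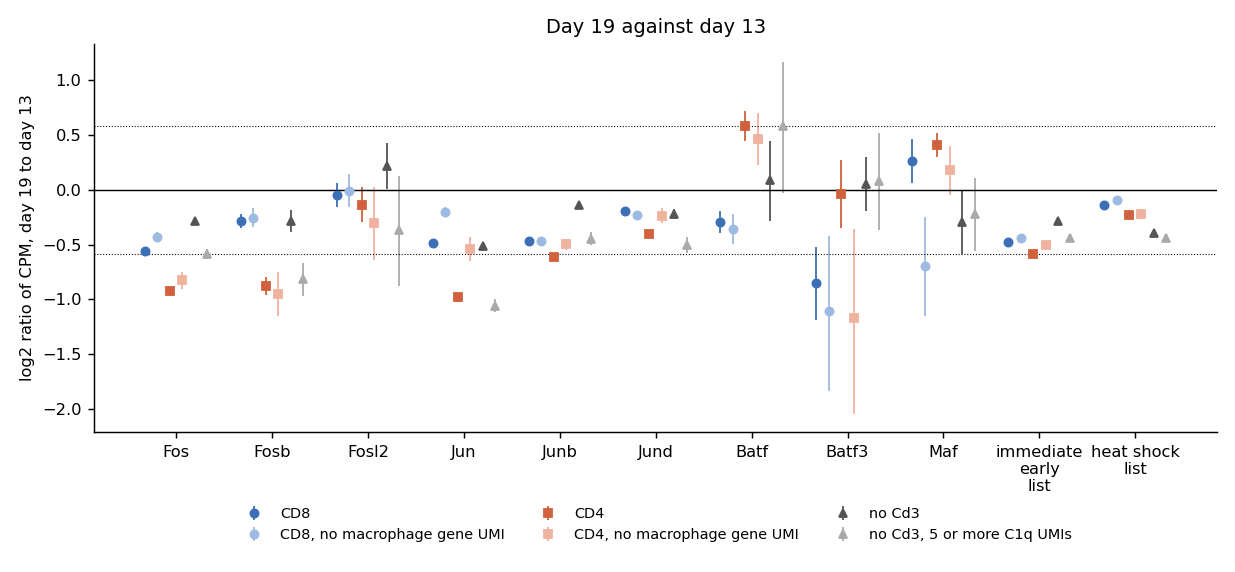
Log2 ratio of day 19 to day 13 (vertical axis) of each member and of the summed immediate early and heat shock lists (horizontal axis), with 95% intervals for counting error. Groups are CD8 and CD4 cells, the same cells without macrophage gene UMIs, barcodes without Cd3, and those of them with at least 5 C1q UMIs. Dotted lines mark 1.5-fold. Fos, Jun, Fosb and Junb of CD4 cells lie past the lower line, and Batf and Maf of CD4 cells lie above 0.

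Within CD8 cells the states defined by Pdcd1, which encodes the inhibitory receptor PD-1, Tcf7, a transcription factor of stem-like cells, and Havcr2, which encodes TIM-3 of terminally exhausted cells, stood apart in AP-1 level. The calls were made after thinning each cell to 5000 UMIs, so that depth did not set them. Fos was 1224 and 1042 CPM (day 13 and day 19) in Pdcd1-negative Tcf7-positive cells, 1011 and 610.3 CPM in progenitor-like cells (Pdcd1 and Tcf7, no Havcr2), 667 and 553 CPM in cells with Pdcd1 alone, and 546 and 369 CPM in terminal-like cells (Pdcd1 and Havcr2, no Tcf7). Jun in the same order was 936 and 762, 637 and 424, 517 and 483, and 360.2 and 362 CPM. Junb was 2936 and 2123, 2354 and 1398.5, 1431 and 1388, and 1303 and 1338 CPM. Pdcd1-negative Tcf7-negative cells were close to the first of these groups in Fos, with 1241 and 926 CPM. Pdcd1-negative Havcr2-positive cells (93 and 77) had the most Fos at day 13, 2284 CPM, against 789 CPM at day 19, and Jun was 1455 and 641 CPM there. Their macrophage list was high as well, at 6787 and 5614 CPM, and its part was not tested. The 23 cells with Pdcd1, Tcf7 and Havcr2 had 1837 and 372 CPM of Fos, with 7348 and 4190 CPM of the macrophage list. For Fos the order of the first 4 states held at both days, for Jun and Junb it held at day 13, and at day 19 the 3 Pdcd1-positive states lay close together in Junb.

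Pdcd1-positive cells (1768) had less Fos, Jun and Junb than Pdcd1-negative cells (2991), past 1.5-fold. Fos in the 4 sets of day 13 was 810, 794, 703 and 676 CPM with Pdcd1 and 1576, 1302, 1175 and 1408 CPM without. In those of day 19 it was 755, 473, 470.5 and 438 CPM with and 1177, 1007, 796 and 918 CPM without. It was lower with Pdcd1 in 8 of 8 sets, and the pooled log2 ratio was -0.91 (-0.94 to -0.88). Jun (484 against 849.6 CPM, -0.81) and Junb (1516 against 2370.3 CPM, -0.64) were also lower in 8 of 8 sets. These 3 of 9 members were past 1.5-fold lower, against 5.72% of 10638 genes, and 2.75% were lower in every set and past the fold as these were.

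Batf was 80.3 CPM with Pdcd1 and 60.9 CPM without (log2 ratio 0.40), within the fold and higher in 7 of 8 sets, the exception being set 2 of day 19 with 55.9 against 57.5 CPM. The Pdcd1-negative level lay below the Batf background of both days (66.0 and 87.8 CPM). Fosb (-0.38), Fosl2 (-0.24) and Jund (-0.18) differed less, and Jund differed by -0.31 at day 13 and by 0.03 at day 19. Within day 13 and within day 19 the ratios were -0.82 and -0.95 for Fos, -0.84 and -0.67 for Jun, -0.70 and -0.46 for Junb, and 0.48 and 0.35 for Batf. In macrophage-free cells the ratios lay further from 0: -1.08 for Fos, -0.93 for Jun, -0.72 for Junb and 0.47 for Batf. The difference was thus at least as large without the barcodes that carry macrophage RNA. Among genes of the other lists, Bach2, a repressor of AP-1 target genes in stem-like T cells, was 15.5 against 37.2 CPM (-1.26), the small MAF gene Maff was lower (-1.13), and Irf8, a BATF partner, was 239 against 125 CPM (0.93). Of the 15 activation genes, 7 were past the fold higher and 3 lower, beside 13.3% of all genes in either direction, with Tnfrsf9 (4-1BB, 1.53), Ifng (1.25) and Ccl4 (1.11) the farthest from 0. Of the 17 immediate early genes 8 were past the fold lower (median -0.54), Socs3 being 108 against 247 CPM.

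Terminal-like cells (399) had less Fos, Jun, Junb and Fosl2 than progenitor-like cells (436). Fos was 438 against 876 CPM, a log2 ratio of -0.999 (-1.08 to -0.92), and it was lower in 6 of 8 sets. This pooled ratio mixes the days unequally, 244 of the terminal-like cells being of day 19 and 319 of the progenitor-like cells of day 13, and the ratio within each day, given below, was nearer to 0. The exceptions were the sets with the fewest terminal-like cells: set 1 of day 13, with 17 such cells at 1254 against 934 CPM, and set 1 of day 19, with 18 such cells at 805 against 505 CPM. Jun was 362 against 565 CPM (-0.65), Junb 1324 against 2032 CPM (-0.62) and Fosl2, a FOS relative without the immediate early pattern of Fos, 46.8 against 72.1 CPM (-0.62). These are 4 of the 8 members with at least 100 UMIs, against 9.48% of 7461 genes. Batf3, at 20 against 33 UMIs (-1.11), is too rare to read. Batf (83.1 against 71.3 CPM, 0.22), Jund (0.09) and Fosb (-0.32) were within the fold.

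For Junb and Fosl2 the terminal-like difference was mostly one of day 13, and for Jun it was larger at day 13. The ratios of day 13 and of day 19 were -0.82 and -0.23 for Jun, -0.85 and -0.06 for Junb, and -1.27 and -0.01 for Fosl2, with differences between the days of 0.60 (0.41 to 0.79), 0.79 (0.69 to 0.89) and 1.27 (0.72 to 1.82). Macrophage-free cells still differed in Jun at day 19 (-0.50, against -0.86 at day 13, a difference of 0.36 with an interval of 0.09 to 0.62). Over all cells the Fos ratios of day 13 and day 19 were -0.89 and -0.73, a smaller difference of 0.164 (0.0012 to 0.326), which was 0.26 (0.01 to 0.51) in macrophage-free cells. Batf was 0.08 at day 13 and 0.76 at day 19. Seen within a state, progenitor-like cells had less Junb at day 19 (-0.75), less Fos (-0.73) and less Batf (-0.83), whereas terminal-like cells had about the same Junb (0.04) and Jun (0.01) and less Fos (-0.57). Without set 3 of day 13, Fos alone of these 4 members was past the fold (Fos -0.83, Jun -0.57, Junb -0.48, Fosl2 -0.42), and sets weighted equally gave -0.46 for Fos.

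Macrophage RNA, choroid plexus RNA and depth moved with these states. A macrophage gene UMI was seen in 34.8% and 39.3% of progenitor-like and in 43.2% and 50.4% of terminal-like cells (day 13 and 19), and median depth was 7073 and 8984 against 11371 and 11804 UMIs. The choroid plexus list (Ttr and Enpp2) summed to 7.69 and 620 CPM in terminal-like and in progenitor-like cells to 2.99 CPM at day 13, with no UMI at day 19, and over all CD8 cells to 2.28 and 93.4 CPM. Its part in the AP-1 ratios was not tested. In macrophage-free cells Fos was lower by more (-1.46, in 8 of 8 sets), and so were Junb (-0.86, 8 of 8 sets), Jun (-0.78) and Fosl2 (-0.77). Bach2 was 7.55 against 40.1 CPM (-2.41) and Irf8 340.4 against 125 CPM (1.44), and Nfil3, a basic leucine zipper gene of exhausted T cells, was higher too (0.90). Of 12 activation genes 6 were past the fold higher and 3 lower, beside 19.5% of all genes in either direction, Ccl3 being highest (2.47) and Xcl1 lowest (-2.46). Of the 17 immediate early genes 8 were past the fold lower and of the 10 heat shock genes 1.

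**Figure D3:**
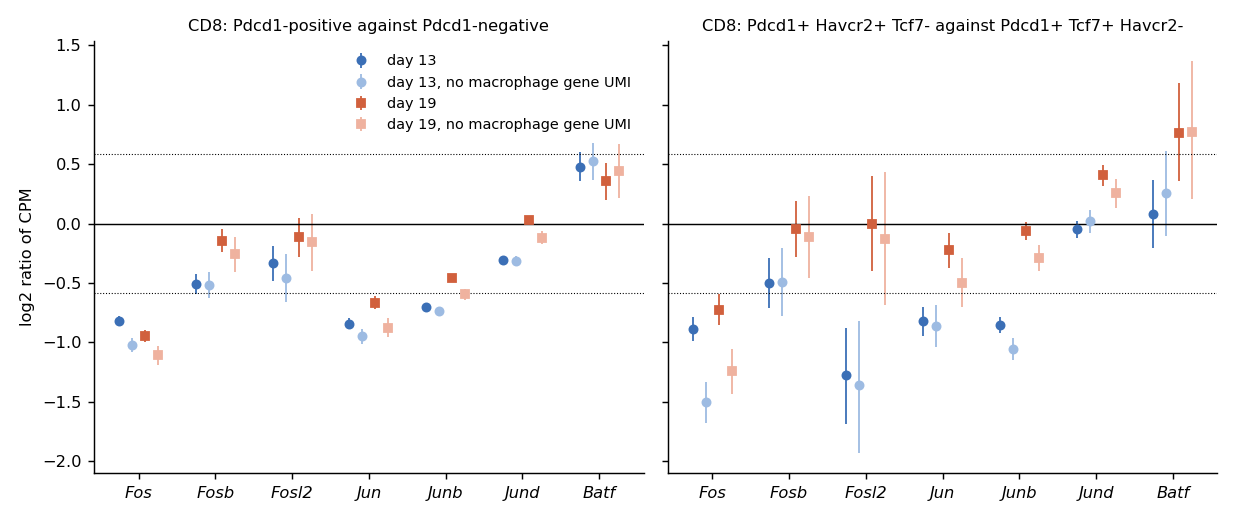
Log2 ratios of Pdcd1-positive to Pdcd1-negative CD8 cells (left) and of terminal-like to progenitor-like cells (right) for 7 members, per day and with or without cells that carry macrophage gene UMIs, with 95% intervals for counting error. Fos, Jun and Junb lie below 0 on the left at both days, and Batf lies above it. On the right Junb and Fosl2 are lower at day 13 and, over all cells, near 0 at day 19.

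Clone size ran with the same members. A clonotype here is a pair of 1 TRA and 1 TRB chain, expanded if at least 3 cells of a set carried it. Fos was 561 CPM in 860 expanded CD8 cells and 1087 CPM in 2245 cells of single clonotypes, a log2 ratio of -0.95 (-0.996 to -0.91). It was lower in 7 of 8 sets: the 4 sets of day 13 had 628, 647, 543 and 504 CPM when expanded and 1137, 1348, 1071 and 1280 CPM when single. At day 19 the sets had 915, 581, 279 and 284 CPM when expanded and 879, 1005, 708 and 879 CPM when single, so that set 1 was the exception. Junb was 1321 against 2257 CPM (-0.77, 8 of 8 sets), Jun 493 against 799 CPM (-0.70, 7 of 8 sets) and Fosl2 lower in 6 of 8 sets (-0.61). These 4 were past the fold lower, against 6.55% of 9987 genes.

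Batf was the only member past the fold higher, against 9.68% of genes. It was 77.7, 116, 84.2 and 90.1 CPM in expanded and 71.7, 65.8, 59.0 and 61.0 CPM in single cells at day 13, and 49.9, 66.6, 113 and 88.0 against 49.5, 52.7, 60.5 and 40.6 CPM at day 19. The expanded side was higher in 8 of 8 sets, though by under 1 CPM in set 1 of day 19, and the ratio was 0.65 (0.53 to 0.77). Fosl2 differed by -1.08 at day 13 and -0.05 at day 19 and Fosb by -0.65 and -0.03, while Fos (-1.01 and -0.81) and Batf (0.68 and 0.64) differed at both days. Without set 2 of day 13 only 3 of these members were past the fold, and Batf, at 0.52, was not among them. Macrophage-free ratios were -1.22 for Fos, -0.84 for Junb, -0.83 for Jun and 0.77 for Batf.

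The largest CD8 clonotypes had the least Fos and Junb at both days, with intermediate sizes between them and single cells. Fos at day 13 was 1206 CPM in clonotypes of 1 cell, 851 CPM in those of 2 cells, 661 CPM for 3 to 9 cells and 532 CPM for 10 or more, and at day 19 it was 892, 674, 679.5 and 353 CPM. Junb was 2500, 1898, 1387 and 1234 CPM at day 13 and 1861, 1583, 1407 and 1266 CPM at day 19. Batf was 63.3, 91.1, 95.5 and 107 CPM at day 13 and 50.5, 67.1, 85.1 and 72.6 CPM at day 19. Batf at day 19 was thus highest in clonotypes of 3 to 9 cells. Jund ran from 1150 to 1435 CPM at day 13 and from 1172 to 1314 CPM at day 19, with expanded to single ratios of opposite sign, -0.31 and 0.13 (difference 0.44, 0.38 to 0.51). Among Pdcd1-positive cells alone the expanded to single ratios were -0.61 for Fos, -0.38 for Junb, -0.07 for Jun and 0.28 for Batf, with 6 of 8 sets in that direction for Fos and for Batf. The Jun difference by clone size was thus small once both sides had Pdcd1. Bach2 (8.47 against 37.5 CPM, -2.15) and Maff (-1.44) were lower in expanded cells, and Jdp2, which competes for AP-1 sites, was higher (28.9 against 13.9 CPM, 1.05).

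**Figure D4:**
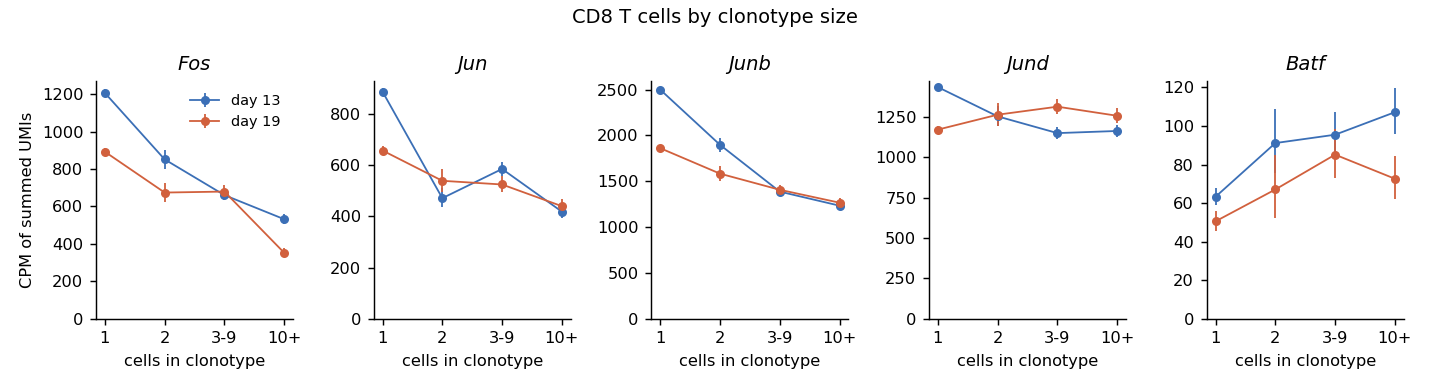
CPM of Fos, Jun, Junb, Jund and Batf (vertical axes, linear) in CD8 cells by clonotype size within a set (1, 2, 3 to 9, 10 or more cells), days 13 and 19, with 95% Poisson error bars. Fos and Junb are lower in clonotypes of 10 or more cells than in single ones, Batf is higher, and Jund stays between 1150 and 1435 CPM.

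The clone comparison in CD4 cells differed between the days. Of the 236 expanded CD4 cells 23 were of day 13. Fos was 1299 against 2287 CPM (-0.82), lower in 8 of 8 sets. The 23 cells lie in 4 sets, so that the direction of a day 13 set can rest on very few cells. Batf had no UMI in the expanded cells of its lowest set. Jun (-0.74) and Fosb (-0.66) were past the fold as well (3 of 9, against 6.19% of 8256 genes). Within day 13 the ratios were -0.69 for Fos, -0.96 for Jun and -1.25 for Fosb. Within day 19 they were -0.34 for Fos, -0.11 for Jun and -0.11 for Fosb. The macrophage-free ratios, over both days, were -0.50, -0.01 and -0.35. For Fos the pooled ratio lies outside both within-day ratios: 213 of the 236 expanded but 277 of the 729 single cells were of day 19, so it carries the day difference as well. Batf differed by 0.18 (0.00 to 0.37) when pooled.

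CD4 cells exceeded CD8 cells in all 9 members, and 5 were past 1.5-fold, against 18.6% of 11268 genes (median 0.08). With classes from the antibody tags instead, 3 were past the fold, Fos was at 0.21, Junb at -0.06 and Jun at -0.084. The 18.6% belongs to the RNA classes, and the share of genes under the antibody classes is not given here. Those tags called 9 and 50 of the CD4 cells CD4 and 206 and 151 of them CD8 at the 2 days, so that they name other cells. Maf was 166 against 16.9 CPM, a log2 ratio of 3.30 (3.19 to 3.41), with CD4 sets between 116 and 198 CPM and CD8 sets between 13.0 and 27.5 CPM. Batf3 was 19.2 against 7.27 CPM (1.40), Fos 2033 against 944 CPM (1.11) and Batf 106 against 69.1 CPM (0.61, 7 of 8 sets). Jun was 1054 against 695 CPM (0.60). Batf3 in CD4 cells of day 13, at 19.5 CPM, was level with its background of 19.9 CPM. For Batf the ratio was 0.14 at day 13 and 1.02 at day 19. CD4 barcodes carried more macrophage RNA, and among macrophage-free cells the ratio was 4.20 for Maf, 0.88 for Fos, 0.75 for Batf, 0.36 for Fosb and 0.11 for Jun. Maf and Batf were thus higher in CD4 cells by at least as much without that RNA, and Jun was nearly level. Batf2 (2.05) and Atf3 (1.66), which macrophages also express, were higher among the relatives.

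Within CD4 cells Maf was higher in the Foxp3-positive cells, the regulatory T cells, and among Foxp3-negative cells Batf was higher with Pdcd1. Neither gene was particular to those cells. Maf was 137 CPM in Foxp3-negative cells, and Batf was 106 CPM both with and without Foxp3. Maf in the Foxp3-positive cells (414) was 165, 275, 218 and 174 CPM in the sets of day 13 and 246, 254.5, 263 and 261 CPM in those of day 19. In the Foxp3-negative cells (1177) it was 101, 135, 118 and 109 CPM and then 139, 148, 152 and 171 CPM. Each set was higher with Foxp3, the ratio was 0.81 (0.70 to 0.91, and 1.31 macrophage-free), and Maf was the only member of 9 past the fold higher, against 4.41% of genes. Fos (-0.26), Fosb (-0.33) and Jun (-0.41) were lower in Foxp3-positive cells in 8 of 8 sets, within the fold, and Batf did not lie apart (0.01, -0.14 to 0.15).

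Among Foxp3-negative CD4 cells, Batf was 136 CPM in the 516 with Pdcd1 and 81.3 CPM in the 661 without, a log2 ratio of 0.74 found in 7 of 8 sets (0.82 macrophage-free). Fos was lower with Pdcd1 in 8 of 8 sets (-0.67, and -0.68 macrophage-free) and so was Jun (-0.76). Of all genes 9.02% were past the fold in either direction. Maf (0.14) differed little. The pooled ratios mix the days unequally, with 211 and 305 cells with Pdcd1 and 399 and 262 without. Within day 13 and within day 19 the ratios were -0.44 and -0.60 for Fos, -0.73 and -0.38 for Jun and 0.56 and 0.68 for Batf. Within a day all 3 were thus nearer to 0 than when pooled, and Fos and Batf at day 13 and Jun at day 19 were within the fold. Macrophage-free ratios of the 2 days were -0.45 and -0.96 for Fos, -0.68 and -1.24 for Jun and 0.84 and 0.70 for Batf.

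Barcodes without Cd3 had more Fos and Jun than T cells and a different set of BATF genes. Fos was 3222 against 1238 CPM (1.38), Jun 1932 against 792 CPM (1.29), Fosb 357 against 211 CPM (0.76) and Batf3 51.8 against 10.5 CPM (2.30). Batf was 23.6 against 78.9 CPM (-1.74). These 4 higher and 1 lower members stand beside 21.9% and 31.3% of 11647 genes, whose median ratio was -0.21. Batf3 was highest in the dendritic gene barcodes, 77.4 and 78.6 CPM at the 2 days, and only 34 and 14 UMIs in all lay in the barcodes with few C1q UMIs and no dendritic gene. Maf divided the same barcodes the other way, with 94.2 and 80.7 CPM in the C1q-rich and 6.6 and 2.1 CPM in the dendritic gene barcodes. With the C1q-rich barcodes left out, Fos (0.98) and Jun (0.59) were still higher than in T cells, while Maf was 1.58 lower (log2 ratio -1.58). Junb (0.20), Jund (0.14) and Fosl2 (0.19) were within the fold when pooled. Against T cells, C1q-rich barcodes had ratios of 0.43 for Junb, 0.53 for Jund and -0.52 for Fosl2, and the others 0.07, -0.07 and 0.43.

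A split of each cell type by the summed UMIs of the immediate early and heat shock lists, members left out, showed which members ran with those genes in each cell type. Cells above the median of their class and day held more Fos in all 3 classes: 1403 against 511 CPM in CD8 cells (log2 ratio 1.46), 1.43 in CD4 cells and 1.08 in no-Cd3 barcodes. Jun was higher by 1.49, 1.79 and 1.51, Fosb by 1.01, 1.27 and 1.25, and Junb by 0.84, 0.87 and 0.91. Jund was higher by 0.56, 0.60 and 0.68 and Fosl2 by 0.55, 0.52 and 0.16. The rare Batf3 had the highest CD8 ratio of the members (2.505, with 12.6 against 2.22 CPM), and was at 0.57 in CD4 cells and -0.14 in no-Cd3 barcodes. Maf was at 1.05 in CD8 cells, -0.29 in CD4 cells and 0.67 in no-Cd3 barcodes. Macrophages express Maf and dendritic cells Batf3, and the part of their RNA in this split was not tested. Batf was 62.8 against 75.0 CPM in CD8 cells (-0.26, -0.36 to -0.16), and its ratio was -0.26 (-0.39 to -0.13) in CD4 cells and -0.33 (-0.66 to 0.00) in no-Cd3 barcodes. By day its intervals also reached 0 in CD8 cells of day 19 (-0.29 to 0.02) and in CD4 cells of day 13 (-0.37 to 0.08). In the CD8 cells of day 13 Fos ranked above 95.5% and Junb above 92.8% of all genes measured in this ratio, and Batf above 12.6%, which was 29.3% at day 19. Across the 2959 CD8 cells of day 13, which share a library, differ in depth and were thinned to 5000 UMIs, Spearman's rho with the immediate early list was 0.52 for Fos, 0.62 for Junb, 0.49 for Jun and -0.05 for Batf, and with the heat shock list 0.09, -0.02, 0.10 and -0.07. With the UMIs of the cell before thinning it was -0.15 for Fos, -0.33 for Junb and -0.16 for Jun, and the part of depth was not tested. In the 797 CD4 cells of day 13, rho with the heat shock list was 0.18 for Fos, 0.25 for Jun and 0.07 for Junb, and with the immediate early list 0.64, 0.57 and 0.63.

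Fos, Jun and Junb were lower with Pdcd1 on both sides of that split. Among CD8 cells at or below the median the Pdcd1 ratios were -0.91 for Fos, -0.65 for Jun, -0.55 for Junb and 0.37 for Batf. Among those above it they were -0.55, -0.51, -0.47 and 0.35, with no member past 1.5-fold. Batf's difference by state was thus nearly equal in the 2 strata, and that of Fos was smaller in the upper one. Expanded against single cells gave -0.94 and -0.62 for Fos and 0.43 and 0.88 for Batf (at or below, and above). Terminal-like against progenitor-like cells gave -1.09 and -0.60 for Fos, -0.47 and -0.44 for Jun and -0.50 and -0.51 for Junb. Splitting on a list that moves with Fos also narrows the range of Fos on each side, and how much of the state difference belongs to handling was not tested.

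**Figure D5:**
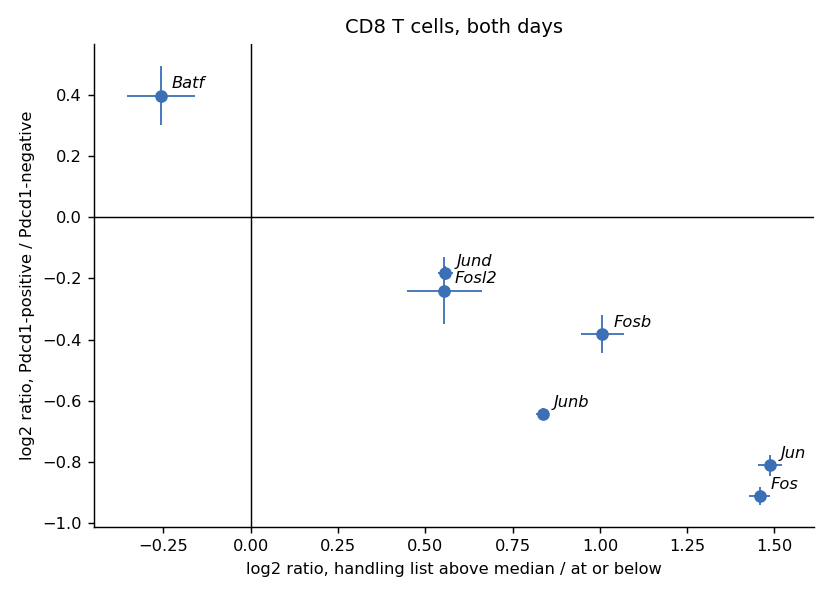
For 7 members in CD8 cells, the log2 ratio of cells above to cells below the median of the handling lists (horizontal axis) against the log2 ratio of Pdcd1-positive to Pdcd1-negative cells (vertical axis), both days. Fos and Jun lie at the lower right, high with these lists and low with Pdcd1, and Batf lies at the upper left.

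Genes with a level pattern most like each member over the 18 T cell groups (class, state and day) are given as a description of groups that share libraries. Fos was closest to Zfp36 (Pearson's r 0.99), Klf4 (0.98) and Ier5 (0.98), Jun to Rhob (0.95) and Ccnl1 (0.94), and Junb to Ier2 (0.96), Ppp1r15a (0.94) and Ifrd1 (0.94). Fosb was closest to Ccnl1 (0.96), Btg2 (0.94) and Ier5 (0.93), and Jund to Ptp4a1 (0.89), Btg2 (0.89) and Csrnp1 (0.87). Batf was closest to Galnt2 (0.90), Stx11 (0.89) and Hif1a (0.88), Maf to Asb2 (0.96), Tnfrsf13b (0.96) and Ebi3 (0.95), Batf3 to Cd83 (0.94), Sdc3 (0.94) and Scpep1 (0.93), and Fosl2 to Jtb (0.85), Klhl24 (0.82) and Dip2b (0.81). Among the members, Fos ran with Jun (0.95), Fosb (0.92) and Junb (0.91), less with Jund (0.78), Batf3 (0.76) and Maf (0.71), and hardly with Batf (0.24). Batf ran with Maf at 0.64, and Maf ran more closely with Batf3 (0.75). The partners of Fos are mostly immediate early genes, and those of Batf and Maf hold none from that list.

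Among the kinases and phosphatases upstream of AP-1, 1 of 21 was past the fold by day in CD8 cells (Map2k1, -0.71), against 11.9% of all genes in either direction. In CD4 cells 3 of 21 were, against 12.2%, and there Dusp4, a phosphatase of MAP kinases, was 110 against 53.7 CPM (1.03) and Dusp10 was lower (-1.03). With Pdcd1, 2 of 21 were past the fold, both higher and among them Dusp4 (1.02), against 13.3% of all genes. Terminal-like cells had 3 of 19 higher and 3 lower than progenitor-like cells, against 19.5% of genes, and expanded CD8 cells 4 of 21 higher and 3 lower, against 16.2%. Dusp4 was among the higher ones in expanded cells (1.16). Of the 25 other basic leucine zipper genes and partners measured, 2 were past the fold by day in CD8 cells (Atf3, a stress-induced relative, 101 against 172 CPM, and Irf8 0.62) and 2 in CD4 cells, with Atf3 at 315 against 618 CPM (-0.97). In these lists Atf3 was lower at day 19 in both T cell classes, as the immediate early members were.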

How the data were processed

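Raw UMI count matrices (32285 genes, 138 antibody tags and 4 multiplexing tags) were deposited for both days, made with Cell Ranger 4.0.0, STAR 2.7.5c and bcl2fastq 2.20 on mm10, per the submitters' processing notes. These name Seurat and R 4.1.2 too, with no role stated. Contig tables came with the receptor libraries. From the deposited counts, barcodes were filtered (at least 5000 UMIs, at most 10% mitochondrial), UMIs were summed per group, and CPM and ratios were computed with Python 3.11.15, numpy 2.4.6, scipy 1.17.1 and pandas 2.3.3. No edgeR test was run, because each day is 1 capture. A ratio was called at 1.5-fold where both sums together held at least 100 UMIs. Doublets were not called. The text names all members, at most 3 genes per list and comparison (those farthest from 0), and the 3 genes most like each member among those with at least 500 UMIs. Some genes that this rule names are not reported here. Members and lists were chosen with earlier results of these data known. On simulated counts for the 10638 genes of the CD8 day comparison, 95.6% of intervals held the true ratio and 200 of 200 genes changed by 2-fold were found. These counts were drawn as Poisson, as the interval assumes. The result thus checks the computation only and says nothing of the spread between cells, sets or animals. Alternatives covered filters, class and state calls, weights, macrophage RNA, handling and left-out sets.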

Additional observations from a re-analysis of the deposited data

How the results depend on the processing

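Counts of members past 1.5-fold were recomputed under each alternative, and 195 of 235 stayed within 1.5 times. The alternative with a lower UMI minimum per gene could not change these counts, and it is among those that stayed. Low and high handling here mean summed immediate early and heat shock UMIs at or below and above the median, whatever moved them. For CD8 cells by day, with 1 member, the count was 2 with a minimum of 1000 or 10000 UMIs, without macrophage RNA, without Mki67 or Top2a cells, or at low handling, 3 with 80% tag purity, 0 at 2-fold, and 0 to 2 with a set left out. CD4 by day (4) gave 0 at 2-fold and 4 to 5 with a set left out. Terminal-like cells (5, with Batf3 under 100 UMIs) gave 3 with 10000 UMIs, in either handling stratum or at day 19 alone, 2 with unthinned states, 1 with equal weight, without Mki67 or Top2a cells, or at 2-fold, and 2 to 5 with a set left out. Pdcd1 (3) gave 0 at high handling and at 2-fold. CD8 clone size (5) gave 2 at low handling, 3 at day 19 alone, 0 at 2-fold, and 3 to 5 with a set left out. CD4 clone size (3) gave 0 with 10000 UMIs, at 2-fold or at day 19 alone, 1 without macrophage RNA and 5 at day 13 alone. The share of all genes past 1.5-fold moved too: 10.2% over both days, 4.57% at day 19, 13.7% without macrophage RNA and 28.5% at day 13. CD4 against CD8 (5) gave 3 by antibody class, centred ratios or 2-fold. Foxp3 (1) gave 0 with 10000 UMIs or at 2-fold, 2 by antibody class and 3 at low handling. The count for barcodes without Cd3 (5) was 4 to 6. Among members past the fold, direction reversed for Batf3 by day in CD8 cells at low handling (0.67), for Fos (0.32) and Fosb (0.65) in CD4 clone size by antibody class, and for Jun in CD4 against CD8 by antibody class (-0.084). Of the 797 and 794 CD4 cells by RNA, 9 and 50 were CD4 by antibody and 206 and 151 CD8, so those classes are not the same cells. Members within the fold changed sign too, such as Maf by day in CD8 cells (0.26, and -0.69 without macrophage RNA) and Batf in CD4 clone size (0.18, and -0.87 by antibody class). The cause of the other moves was not tested. The split of no-Cd3 barcodes by C1q was chosen after seeing the data. No paired analysis was run, because the sets are not taken as replicates and the results come from no test. The direction within each set stands in the report in its place. Barcodes under 5000 UMIs were not analysed here beyond the alternatives, and rare members (Batf3, Maf in CD8 cells) are limited by depth.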
